A study of Mus musculus with 12 samples.

Results

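The 10 genes described here mark Müller glia, the radial glia that span the retina, or rise in glia and photoreceptors under stress. They were chosen by symbol (Gfap, Vim, Glul, Slc1a3, Apoe, Aqp4, Kcnj10, Edn2, Lcn2 and Serpina3n), and all 10 were found under an unshared symbol among the 56748 entries of the count table and the 55372 genes of the table of TPM, a transcript share scaled by length. RNA was sequenced from 2-month-old Abca4-/- mice (Abca4Ko), which lack the transporter that clears retinal derivatives from photoreceptor discs, and from Abca4+/+ controls. Each genotype gave 3 libraries of whole retina lysate and 3 libraries of rod TRAP, translating ribosome affinity purification, in which a tagged ribosomal protein that rhodopsin-Cre switches on in rods is pulled down with its messages. Every animal was thus meant to carry the tag in rods, whatever its Abca4 genotype, although the study's methods describe that cross for its Pkm2 line and not for Abca4Ko. All animals had been found free of the rd1 and rd8 retinal degeneration alleles, and nothing states which libraries came from 1 animal or from pooled animals. Müller glia carry no tag, so the retina libraries report these genes from all retinal cells and the rod TRAP libraries report how far their messages were left in the pull-down.

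Müller glia hold the retina together and serve its neurons. They take up glutamate with GLAST (Slc1a3) and turn it into glutamine with glutamine synthetase (Glul), and they move potassium and water through Kir4.1 (Kcnj10) and aquaporin 4 (Aqp4). When photoreceptors are injured they become reactive, a state called gliosis, of which the intermediate filament protein Gfap is the classic mark. Stressed photoreceptors make endothelin 2 (Edn2), a secreted peptide that can signal to Müller glia through the endothelin B receptor. Astrocytes at the inner surface of the retina also express Gfap, Aqp4 and Slc1a3, and in bulk retina their RNA cannot be separated from that of Müller glia.

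Abca4 checked the labels. In retina its TPM was 520, 582 and 494 in control replicates 1 to 3 and 1.8, 5.9 and 129 in Abca4Ko replicates 1 to 3, and in rod TRAP it was 992, 877 and 890 against 2.9, 6.3 and 216. The libraries labelled Abca4Ko replicate 3 therefore held Abca4 messages in both fractions, below every control library but far above the other Abca4Ko libraries. The 12 rod markers summed to between 215734 and 242519 TPM in rod TRAP and between 95366 and 128138 TPM in retina. Müller glia markers (28 genes, of which 6 are among the 10) summed to 4018 and 5043 TPM in the first retina replicates of Abca4Ko and control and to between 6752 and 7461 TPM in the other retina libraries, and no marker of that list was at 0 throughout a retina group. Abca4Ko retina replicate 1 was also the lowest retina library for bipolar, amacrine, ganglion, microglia, vascular and RPE markers. Lens markers summed to 26201 TPM in control retina replicate 1 and to 8724 and 12957 TPM in Abca4Ko retina replicates 2 and 3, but to between 19.3 and 94.6 TPM in the other retina libraries. Blood markers summed to 541 to 1235 TPM in control retina and to 383 to 603 TPM in Abca4Ko retina. The part that these differences play in the values below was not tested. In bulk samples fewer cells of a type and less RNA per cell cannot be told apart.

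**Figure D1:**
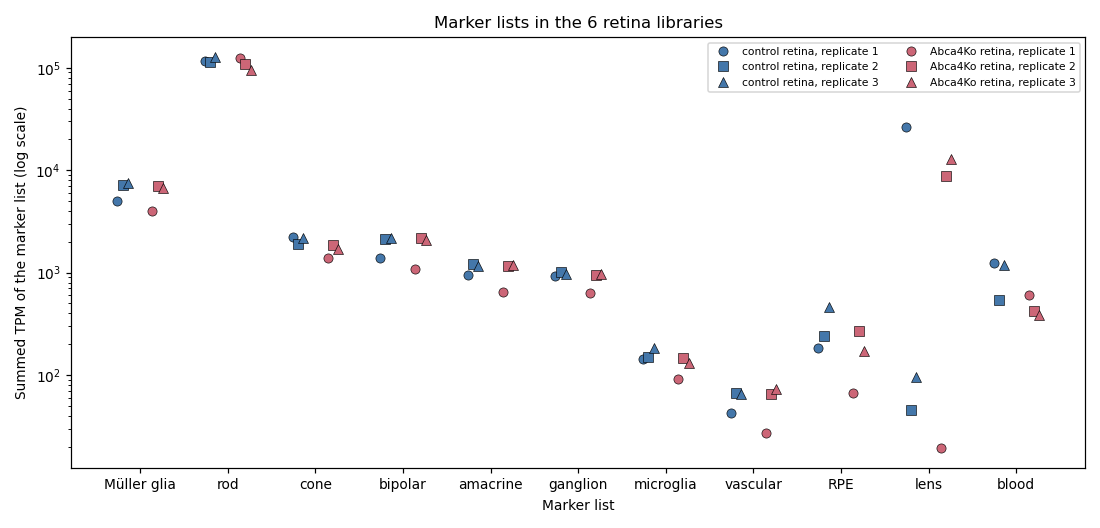
Summed TPM of each marker list (log axis) in the 6 retina libraries, 1 point per library, blue for control and red for Abca4Ko, with the replicate number as the symbol. Müller glia markers were lowest in replicate 1 of both genotypes, at 5043 TPM in control and 4018 TPM in Abca4Ko, and lens markers separated control replicate 1 and Abca4Ko replicates 2 and 3 from the rest.

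Promoters are shown for 4 genes. These are Gfap and Serpina3n, whose messages were nearly absent from rod TRAP, and Lcn2 and Edn2, whose messages stayed. Each is the 250 bases before the annotated start, from RefSeq on GRCm38.p6, written in the direction of the gene.

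Gfap, chr11:102897201-102897450, minus strand: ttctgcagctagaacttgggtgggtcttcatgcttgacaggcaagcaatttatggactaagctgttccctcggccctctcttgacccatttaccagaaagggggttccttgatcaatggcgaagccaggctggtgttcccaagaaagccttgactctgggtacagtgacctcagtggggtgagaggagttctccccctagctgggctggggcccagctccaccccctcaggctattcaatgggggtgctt
Serpina3n, chr12:104406458-104406707, plus strand: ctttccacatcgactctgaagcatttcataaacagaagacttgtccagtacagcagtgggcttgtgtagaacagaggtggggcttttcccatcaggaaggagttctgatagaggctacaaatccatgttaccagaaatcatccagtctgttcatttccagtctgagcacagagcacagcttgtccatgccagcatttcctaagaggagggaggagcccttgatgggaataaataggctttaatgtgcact
Lcn2, chr2:32387740-32387989, minus strand: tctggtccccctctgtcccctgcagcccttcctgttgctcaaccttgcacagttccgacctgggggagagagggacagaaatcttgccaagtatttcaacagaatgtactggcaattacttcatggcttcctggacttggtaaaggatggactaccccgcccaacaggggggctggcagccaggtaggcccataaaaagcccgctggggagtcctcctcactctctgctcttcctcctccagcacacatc
Edn2, chr4:120160956-120161205, plus strand: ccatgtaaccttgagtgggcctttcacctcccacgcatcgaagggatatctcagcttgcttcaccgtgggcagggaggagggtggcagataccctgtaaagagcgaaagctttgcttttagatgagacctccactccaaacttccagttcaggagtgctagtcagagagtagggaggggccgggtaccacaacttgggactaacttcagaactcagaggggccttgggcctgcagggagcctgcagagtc

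These windows were searched on both strands for the STAT motif TTCNNNGAA, since STAT3 signalling accompanies gliosis, and for the core of the hypoxia response element, ACGTG. Neither was found in any of the 4, so no base is in capitals. Among all 32851 promoters of the same length in that table, 7.02% held the first motif and 16.6% the second. The absence of these letters in 250 bases says nothing about sites elsewhere. Of the 10 genes, 9 had a promoter in the table.

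Per unit of transcript length, the 10 genes covered a range of more than 2 orders of magnitude in retina. In control retina Apoe, the lipid carrier that glia secrete, stood at 2037 ± 525 TPM (mean ± SD, n = 3 here and below) and Glul at 1505 ± 491 TPM, and their ranges overlapped. Vim, the intermediate filament protein vimentin, followed at 138 ± 19.8 TPM and Slc1a3 at 43.4 ± 17.4 TPM, both set apart from the gene above them. Below these, Gfap (27.6 ± 9.12 TPM), the acute phase protease inhibitor Serpina3n (24.9 ± 4.94 TPM), lipocalin 2 (Lcn2, 23.3 ± 3.53 TPM), Kcnj10 (19.9 ± 7.36 TPM), Edn2 (11.8 ± 5.65 TPM) and Aqp4 (8.73 ± 3.62 TPM) each overlapped the next in range. In Abca4Ko retina the same genes led, with Apoe at 1555 ± 454 TPM, Glul at 1552 ± 339 TPM, Vim at 155 ± 54.0 TPM and Slc1a3 at 60.7 ± 23.4 TPM. Edn2 was last there at 7.07 ± 2.72 TPM, below every value of Aqp4 (15.1 ± 6.37 TPM).

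The order was another one in rod TRAP. Glul was first, at 62.9 ± 2.16 TPM in control and 69.0 ± 11.9 TPM in Abca4Ko, and Apoe came next, at 23.0 ± 8.86 and 26.9 ± 4.39 TPM. Lcn2 followed at 19.4 ± 4.94 and 17.0 ± 2.61 TPM and Edn2 at 8.43 ± 4.94 and 6.03 ± 0.379 TPM, both above every value of Vim, Slc1a3, Kcnj10, Aqp4, Gfap and Serpina3n within the same genotype. The last 2 in this order, Gfap and Serpina3n, had mean levels between 0.167 and 0.533 TPM.

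**Figure D2:**
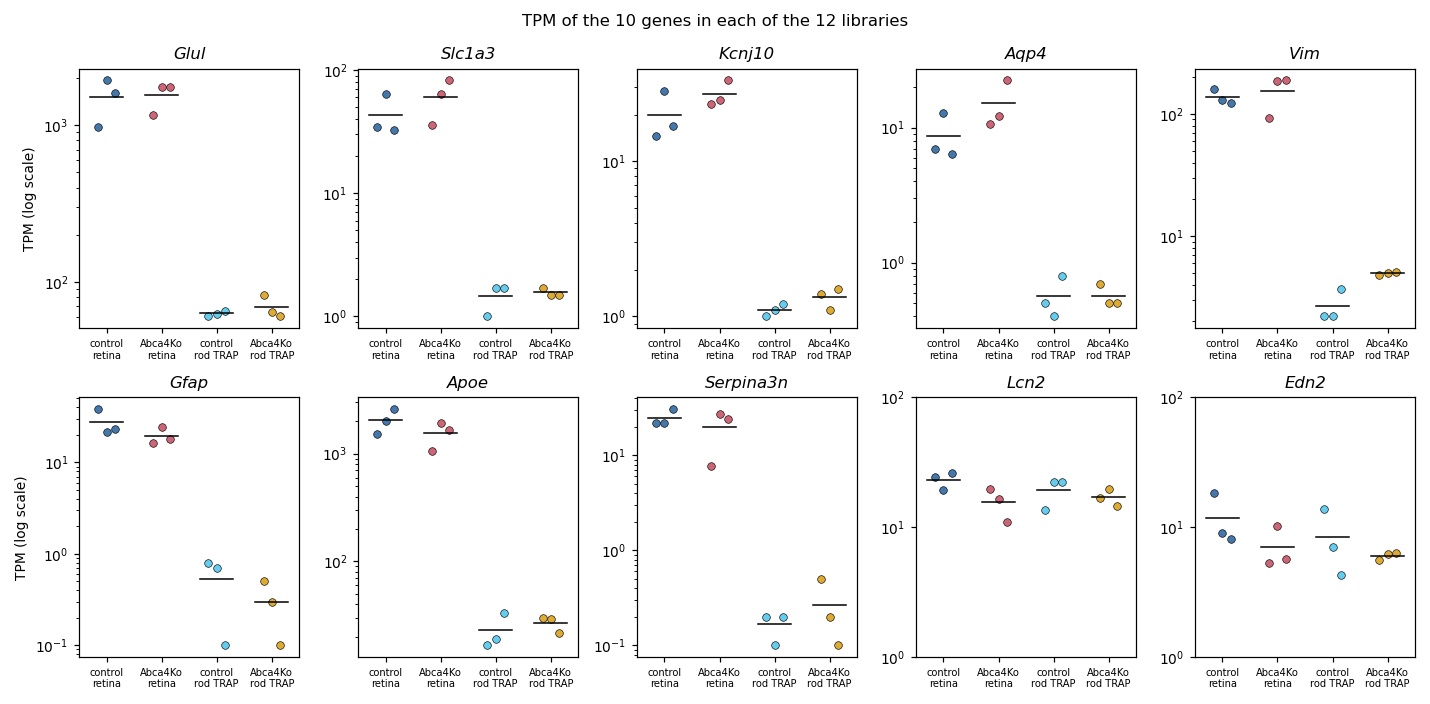
TPM (log axis, scaled per panel) of each of the 10 genes, 1 point per library in the order of the replicate numbers, with a line at the group mean. In 8 panels all 6 rod TRAP points lie below all 6 retina points, and in the panels of Lcn2 and Edn2 the fractions overlap.

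The first comparison asked which of these messages the rod pull-down left behind. In control, 8 of the 10 genes were lower in rod TRAP than in retina, where 38.8% of the 16286 genes tested were called lower (limma adjusted p under 0.05 on log2(CPM + 0.5), where CPM is the rescaled count as a share of its library). The same 8 were lower in Abca4Ko, where 33.7% of 16036 genes were. Without both libraries of Abca4Ko replicate 3, which held Abca4, 7 of the 9 genes still testable were lower, where 2344 of 13150 genes were. Serpina3n was the one no longer tested. Gfap and Serpina3n had fewer than 10 scaled counts in some or all rod TRAP libraries and were tested only through their retina libraries, so that a lower value was built into their being tested. Of the other 8 genes, 6 were lower in each genotype. The shares over all genes include genes tested only through retina, and no share restricted to the rest is given. The fractions of the 8 lower genes, Gfap and Serpina3n included, did not overlap in either genotype. Of all genes tested, 40.6% in control and 35.7% in Abca4Ko were lower without overlap. Gfap and Serpina3n also enter the median log2 difference of the 10, which was -4.28 in control and -4.36 in Abca4Ko. Over all genes tested it was -0.03 and 0.00.

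Glul and Slc1a3, which handle glutamate, and the channel genes Kcnj10 and Aqp4 were all lower in rod TRAP. Glul measured 971, 1936 and 1609 TPM in control retina replicates 1 to 3 and 60.9, 62.7 and 65.2 TPM in control rod TRAP. All rod TRAP libraries were thus far below all retina libraries, with 4.18% of the retina mean left and a log2 difference of -4.24 (SE 0.18, limma adjusted p = 7.55e-10). In Abca4Ko it measured 1160, 1747 and 1750 TPM in retina and 82.5, 64.4 and 60.1 TPM in rod TRAP (log2 difference -4.23, SE 0.20). Replicate 1 was its lowest retina library and its highest rod TRAP library. Glul shares exon sequence with Teddm2 on the opposite strand, which reached at most 45 scaled counts against 29443 or more for Glul in retina.

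Slc1a3 stood at 34.5, 63.5 and 32.3 TPM in control retina and at 1.0, 1.7 and 1.7 TPM in control rod TRAP, a log2 difference of -4.31 (SE 0.22). Its level in Abca4Ko was 36.0, 63.8 and 82.4 TPM in retina and 1.7, 1.5 and 1.5 TPM in rod TRAP (-4.82, SE 0.20). The rod TRAP libraries of both genotypes overlapped and so did the retina libraries.

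The 2 channel genes kept the largest share of their retina level among the 8 in control. Kcnj10 was at 14.6, 28.3 and 16.8 TPM in control retina and at 1.0, 1.1 and 1.2 TPM in rod TRAP, and Aqp4 at 6.9, 12.9 and 6.4 TPM against 0.5, 0.4 and 0.8 TPM. In control, 5.53% of the mean retina TPM of Kcnj10 and 6.49% of that of Aqp4 remained. Their log2 differences were -3.61 (SE 0.19) and -3.35 (SE 0.21) in control and -3.98 (SE 0.18) and -3.96 (SE 0.24) in Abca4Ko. At 0.4 to 0.8 TPM, the values of Aqp4 in rod TRAP rest on between 19 and 35 scaled counts.

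Of the filament proteins, Vim fell from 160, 130 and 123 TPM in control retina to 2.2, 2.2 and 3.7 TPM in rod TRAP (log2 difference -5.22, SE 0.19), and from 93.0, 185 and 188 TPM to 4.8, 5.0 and 5.1 TPM in Abca4Ko (-4.86, SE 0.22). Gfap had 38.1, 21.4 and 23.4 TPM in control retina and 0.8, 0.7 and 0.1 TPM in control rod TRAP. It had 16.1, 24.6 and 18.1 TPM in Abca4Ko retina and 0.5, 0.3 and 0.1 TPM in Abca4Ko rod TRAP. Its log2 differences were -5.15 (SE 0.35) and -4.74 (SE 0.31), and 1.93% and 1.53% of its mean retina TPM remained. These values of rod TRAP rest on 18, 3 and 3 scaled counts in the control libraries and on 13, 9 and 2 in those of Abca4Ko, and the TPM of 0.7 beside 3 scaled counts shows that the 2 tables do not run in parallel at this depth.

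The secreted proteins Apoe and Serpina3n kept the smallest shares of their retina TPM in control. Apoe had 1526, 2012 and 2575 TPM in control retina and 16.7, 19.1 and 33.1 TPM in control rod TRAP, the largest log2 difference of the 10 (-6.08, SE 0.24), with 1.13% left. In Abca4Ko it had 1055, 1940 and 1669 TPM in retina and 29.6, 29.2 and 21.8 TPM in rod TRAP (-5.42, SE 0.19). Serpina3n measured 21.9, 22.2 and 30.6 TPM in control retina against 0.2, 0.1 and 0.2 TPM in rod TRAP, and in Abca4Ko 7.8, 27.1 and 24.3 TPM against 0.5, 0.2 and 0.1 TPM. Only 0.669% and 1.35% of its mean retina TPM remained, less than the log2 differences of -5.13 (SE 0.23) and -4.49 (SE 0.35) tell. Its 1 to 8 scaled counts per rod TRAP library are small beside the 0.5 CPM added to each value. The log2 differences are also of rescaled CPM and not of TPM, and the part of each was not tested.

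Lcn2 and Edn2 did not follow. Lcn2, an iron-binding acute phase protein, measured 24.6, 19.3 and 26.0 TPM in control retina and 13.7, 22.2 and 22.3 TPM in control rod TRAP, and 19.7, 16.4 and 11.0 TPM against 16.7, 19.7 and 14.5 TPM in Abca4Ko. The fractions overlapped in both genotypes, with log2 differences of 0.09 (SE 0.21, 95% interval -0.37 to 0.55) in control and 0.41 (SE 0.30, -0.24 to 1.07) in Abca4Ko. Without rescaling beyond that of the deposited table, Lcn2 was called lower in control rod TRAP (log2 difference -0.53, limma adjusted p = 0.0345), where the median over all genes was itself -0.62. That scaling lowered the share of higher genes among all called from 48.6% to 26.3% in control, and in Abca4Ko from 47.4% to 22.6%. The other 8 genes were lower under either scaling, each by far more than the shift of that median.

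Edn2 had 18.3, 9.0 and 8.1 TPM in control retina and 13.9, 7.1 and 4.3 TPM in control rod TRAP. In Abca4Ko it had 5.3, 10.2 and 5.7 TPM in retina and 5.6, 6.2 and 6.3 TPM in rod TRAP. In control the library of replicate 1 was highest and that of replicate 3 lowest in both fractions. The log2 difference between the fractions was -0.25 (SE 0.39, -1.10 to 0.60) in control and -0.05 (SE 0.27, -0.64 to 0.54) in Abca4Ko. Between libraries of the same number, Edn2 in rod TRAP was 76.0%, 78.9% and 53.1% of its retina TPM in control, lower in all 3 pairs, and 106%, 60.8% and 111% in Abca4Ko. On the rescaled CPM 2 of 3 control pairs and 1 of 3 Abca4Ko pairs were lower. A fit blocked by replicate number did not call the difference in control either (-0.25, SE 0.19, limma adjusted p = 0.238). Both unpaired intervals end below the median of the 12 rod markers, 1.24 in control and 1.25 in Abca4Ko, and above the values of the other 8 genes. Without control retina replicate 1 the difference in control became 0.18, still not called, so its sign rests on single libraries. Without rescaling beyond the deposited table it was -0.85 in control (limma adjusted p = 0.0748) and -0.54 in Abca4Ko (limma adjusted p = 0.123). The median over all genes was itself -0.62 and -0.49 there.

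**Figure D3:**
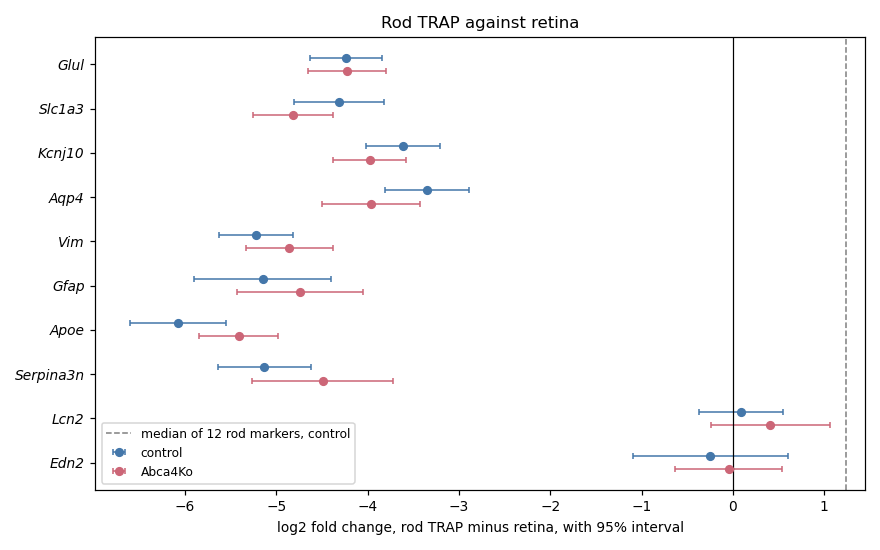
Log2 fold change of rod TRAP against retina for the 10 genes with 95% intervals from limma, blue for control and red for Abca4Ko, beside the median of 12 rod markers in control (dashed). The intervals of 8 genes lie between -6.60 and -2.89 and those of Lcn2 and Edn2 reach across 0.

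Most other Müller glia genes were lower in rod TRAP too. Of 22 further identity genes, 21 were lower in each genotype and none was higher, beside 38.8% of all genes lower in control and 33.7% in Abca4Ko. However, 10 of the 22 in control and 8 in Abca4Ko were tested only through their retina libraries. Of those that also reached 10 scaled counts in every rod TRAP library, 11 of 12 were lower in control and 13 of 14 in Abca4Ko. No share of all genes under that condition is given. The 22 genes, those tested only through retina included, had a median log2 difference of -4.28 in control and -3.84 in Abca4Ko. The largest differences in control were those of the GABA transporter Slc6a11 (-6.08), Dkk3 (-5.46) and the retinal-binding protein Rlbp1 (-5.45). In Abca4Ko they were Slc6a11 (-5.65), Dkk3 (-5.40) and the tetraspanin Cd9 (-5.38), the last tested only through retina. The gene that was not called, found after its values were seen, was Dag1, dystroglycan, with 27.6, 35.3 and 27.9 TPM in control retina and 28.4, 24.1 and 23.5 TPM in control rod TRAP (log2 difference 0.12, SE 0.12, and -0.52 with the deposited scaling alone).

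Further gliosis genes were mostly too low in rod TRAP for this comparison. Of a list of 20, 16 of 18 tested were lower in control and 16 of 16 in Abca4Ko, beside 38.8% and 33.7% of all genes tested. However, 15 in each genotype were tested only through their retina libraries, where a lower value was built in. Of the rest, 2 of 3 were lower in control and 1 of 1 in Abca4Ko, and no share of all genes under that condition is given. The metal-binding metallothionein Mt1 (-5.19), complement C4b (-5.04) and the chitinase-like protein Chil1 (-4.78) led in control, and the sphingosine phosphate receptor S1pr3 (-4.57), Mt1 (-4.29) and Chil1 (-4.01) in Abca4Ko, all of them among those 15. Of 10 astrocyte genes, 8 of 9 tested were lower in control and 5 of 7 in Abca4Ko, beside the same shares of all genes. In each genotype 1 was higher, where 36.6% of all genes were in control and 30.4% in Abca4Ko. Here 6 of the 9 and 5 of the 7 were tested only through retina. S100b, Gja1 (connexin 43) and the folate enzyme Aldh1l1 had differences between -4.14 and -3.71 in control and between -4.62 and -3.74 in Abca4Ko, and of these only Gja1 in control had 10 scaled counts in every rod TRAP library. The higher one was Slc1a2, the glutamate transporter GLT-1, with 45.3 to 60.6 TPM in control retina and 112 to 119 TPM in control rod TRAP (1.96, SE 0.12).

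The endothelin and survival factor list had 16 of 18 genes tested, 11 lower and 5 higher in rod TRAP in each genotype. Over all genes tested, 38.8% were lower and 36.6% higher in control, and 33.7% and 30.4% in Abca4Ko. The count of higher genes was thus near the share over all genes. Of the 11 lower genes, 10 were tested only through their retina libraries, among them Edn1, Edn3, Ednra and Ednrb, and the exception was Ece1. The ligand gene Edn3 had 4.3, 6.2 and 7.1 TPM in control retina and 0.1, 0.0 and 0.2 TPM in control rod TRAP (log2 difference -3.89, SE 0.25), and Edn1 had 0.8 to 1.4 TPM in control retina and was listed at 0.0 TPM in all 3 control rod TRAP libraries. The converting enzyme Ece1, which cuts endothelins to their active form, went from 34.4 to 42.9 TPM down to 1.7 to 2.1 TPM (-3.01, SE 0.15). Receptor genes were low throughout. Ednrb reached 2.6 TPM and Ednra 0.7 TPM in control retina, and both were lower in rod TRAP, by -2.18 (SE 0.25) and -1.74 (SE 0.18) on the log2 scale.

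The 5 higher genes were Fgf2, Lifr, Jak1, Il6st and Stat3. Fgf2, a survival factor for photoreceptors, had 4.2, 5.0 and 2.3 TPM in control retina and 40.5, 28.9 and 27.3 TPM in control rod TRAP (3.26, SE 0.20). Lifr, the receptor for leukaemia inhibitory factor, rose from 10.8, 10.7 and 8.3 TPM to 41.0, 37.2 and 36.7 TPM (2.42, SE 0.14). The kinase gene Jak1 was higher by 2.00 (SE 0.17), the shared receptor chain Il6st by 0.70 (SE 0.14) and the transcription factor Stat3 by 0.32 (SE 0.12). In contrast, the receptor genes Cntfr, for ciliary neurotrophic factor, and Fgfr1 stood at -5.68 and -5.07 in control and -5.26 and -4.55 in Abca4Ko, both tested only through retina. Without rescaling beyond the deposited table, Stat3 turned to -0.32 in control (limma adjusted p = 0.0307) and -0.15 in Abca4Ko and Il6st to 0.05 and -0.13, neither called higher, while Fgf2, Lifr and Jak1 were still higher.

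**Figure D4:**
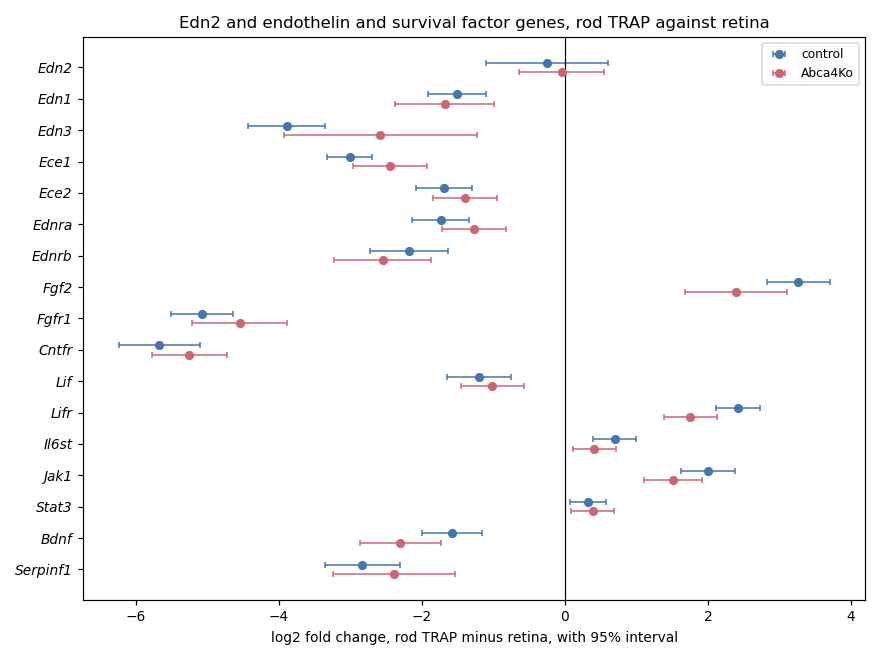
Log2 fold change of rod TRAP against retina with 95% intervals from limma for Edn2 and 16 genes of the endothelin and survival factor list that were tested in both genotypes, blue for control and red for Abca4Ko. Fgf2, Lifr, Jak1, Il6st and Stat3 lie to the right of 0, though Stat3, and Il6st in Abca4Ko, change sign with the deposited scaling alone. The other endothelin genes lie to the left, and Edn2 reaches across 0.

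The second comparison asked whether the loss of Abca4 changed these genes in retina. None of the 10 was called by limma, where 0.106% of the 16964 genes tested were (15 higher and 3 lower), and 2 of the 10 had an unadjusted p under 0.05, beside 12.0% of all genes tested. The median log2 difference, Abca4Ko minus control, was -0.15 for the 10 and -0.02 over all genes tested, with 5 above and 5 below 0. The alternative fits, including those without single libraries, without replicate 1 of both genotypes and without the libraries high in lens transcripts, also called none of the 10. The same held without Abca4Ko replicate 3, where 21 genes were called in all.

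Aqp4 came nearest. Its rescaled level was 21.6, 34.9 and 21.6 CPM in control and 41.7, 35.0 and 60.1 CPM in Abca4Ko, so that the groups just did not overlap, as for 10.4% of all genes tested in this direction. The log2 difference was 0.80 (SE 0.25, 95% interval 0.24 to 1.36, limma adjusted p = 0.400), and over the alternatives the adjusted p ran from 0.109 to 0.937. In TPM, 12.9 in control replicate 2 exceeded 10.7 and 12.2 in Abca4Ko replicates 1 and 2. Kcnj10 went the same way, with 53.9, 87.9 and 63.2 CPM in control and 102, 82.8 and 101 CPM in Abca4Ko (0.50, SE 0.20, 0.05 to 0.95, limma adjusted p = 0.400), and control replicate 2 lay within the range of Abca4Ko. Slc1a3 differed by 0.49 (SE 0.23, -0.02 to 1.00) and Glul by 0.10 (SE 0.24, -0.43 to 0.63).

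No gliosis gene among the 10 was called higher in Abca4Ko. Gfap was highest in control replicate 1, at 38.1 TPM, and the other 5 retina libraries lay between 16.1 and 24.6 TPM with both genotypes mixed. Its log2 difference was -0.42 (SE 0.26, -0.99 to 0.16, limma adjusted p = 0.491). The interval thus ends at a rise of 0.16 on the log2 scale. Serpina3n was -0.50 (SE 0.33, -1.23 to 0.23), with 7.8 TPM in Abca4Ko replicate 1 and 21.9 to 30.6 TPM in the other libraries, and Lcn2 was -0.54 (SE 0.31, -1.24 to 0.15). Vim differed by 0.03 (SE 0.23, -0.49 to 0.55) and Apoe by -0.34 (SE 0.24, -0.86 to 0.19). Within each genotype Vim was highest in the retina libraries high in lens markers. It had 160 TPM in control replicate 1, against 130 and 123 TPM in control replicates 2 and 3. In Abca4Ko it had 185 and 188 TPM in replicates 2 and 3, against 93.0 TPM in replicate 1. The part of lens RNA in the Vim values was not tested. Edn2 differed by -0.67 (SE 0.37, -1.50 to 0.16), and here too control replicate 1, at 18.3 TPM, stood above the other 5 libraries at 5.3 to 10.2 TPM.

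Since the Müller glia markers varied between retina libraries, the 10 genes were also read against 21 other identity genes at 1 TPM or more in every retina library. The geometric mean of those 21 was 29.5, 45.3 and 40.6 TPM in control replicates 1 to 3 and 23.4, 44.0 and 47.8 TPM in Abca4Ko. Relative to it, Gfap was 1.29, 0.473 and 0.576 in control and 0.687, 0.559 and 0.379 in Abca4Ko, so the ranges overlapped. Aqp4 was 0.234, 0.285 and 0.158 in control and 0.457, 0.277 and 0.469 in Abca4Ko, which overlap as well. This ratio was chosen after the marker sums were seen and was not tested.

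**Figure D5:**
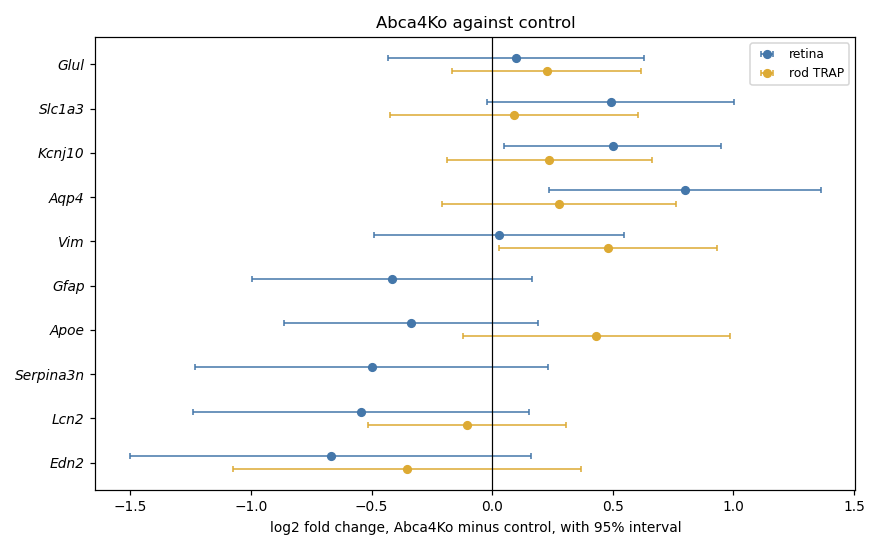
Log2 fold change of Abca4Ko against control with 95% intervals from limma, blue for retina (10 genes) and yellow for rod TRAP (8 genes). Aqp4 at 0.80 and Kcnj10 at 0.50 in retina and Vim at 0.48 in rod TRAP have intervals that exclude 0 before adjustment, and none passes after it.

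Other genes of these pathways gave no call in retina either. Of the 22 identity genes 4 had an unadjusted p under 0.05, of 18 gliosis genes 5, of 16 endothelin and survival factor genes 2 and of 10 astrocyte genes 1, beside the same 12.0% of all genes, and none passed after adjustment. The gliosis list had a median log2 difference of -0.35, with 14 of 18 genes below 0 and 4 lower without overlap, where all genes tested gave 9.47%. Its members with the largest differences were C4b (-1.10, SE 0.36), the protease inhibitor A2m (-0.90, SE 0.20) and Chil1 (-0.72, SE 0.20). A2m had 5.6, 5.3 and 5.6 TPM in control and 2.2, 3.1 and 3.3 TPM in Abca4Ko (limma adjusted p = 0.239), and Chil1 31.0, 39.1 and 38.5 TPM against 14.2, 28.8 and 25.7 TPM (limma adjusted p = 0.400). Every Abca4Ko library lay below every control library for both. C4b overlapped, with 8.9, 7.0 and 9.6 TPM in control and 1.7, 7.2 and 5.1 TPM in Abca4Ko.

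Among the identity genes the transcription regulators Id3 (-0.99, SE 0.41) and Nfib (0.78, SE 0.24) and the protease Prss56 (0.81, SE 0.37) differed most. Id3 stood at 7.6 TPM in Abca4Ko replicate 1 and at 33.5 to 59.7 TPM in the other 5 libraries. Edn3 (-1.38, SE 0.58) led the endothelin and survival factor list, with 0.5 TPM in Abca4Ko replicate 1 beside 4.4 and 4.5 TPM in the others of its group, followed by Lifr (0.56, SE 0.20) and Fgf2 (0.46, SE 0.29). Gja1 (-0.71, SE 0.50), Slc1a2 (0.45, SE 0.20) and the glycolytic enzyme gene Aldoc (-0.20, SE 0.18) were the astrocyte genes with the largest differences, and Gja1 had 4.1 TPM in Abca4Ko replicate 1 and 19.2 to 26.1 TPM elsewhere. The low values of Id3, Edn3 and Gja1 thus all fell in Abca4Ko retina replicate 1. That library had the lowest sums of Müller glia, bipolar, amacrine, ganglion, microglia, vascular and RPE markers alike. What part this played was not tested.

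In rod TRAP, 8 of the 10 genes could be tested, Gfap and Serpina3n being too low. None of the 8 was called by limma, where 1.13% of 13104 genes were, nor was any without Abca4Ko replicate 3. With only the libraries low in lens transcripts, which leaves Abca4Ko replicate 1 against control replicates 2 and 3, Glul was higher by 0.61. That effect size rests on 1 Abca4Ko library. In the fit of all 6 libraries 1 of the 8 genes had an unadjusted p under 0.05, beside 10.4% of all genes tested. That was Vim, at 4.8, 5.0 and 5.1 TPM in Abca4Ko against 2.2, 2.2 and 3.7 TPM in control (log2 difference 0.48, SE 0.21, 0.03 to 0.93, limma adjusted p = 0.449), over 28 to 63 scaled counts. In TPM the groups did not overlap, while on the rescaled CPM they did. Apoe was higher by 0.43 (SE 0.25, -0.12 to 0.98), Glul by 0.23 (SE 0.18, -0.17 to 0.62) and Aqp4 by 0.28 (SE 0.22, -0.21 to 0.76). Across the 8 the median log2 difference was 0.23, beside 0.00 over all genes tested. The summed Müller glia markers in rod TRAP were 237, 221 and 260 TPM in control and 311, 248 and 236 TPM in Abca4Ko, highest in Abca4Ko replicate 1, which was also the highest rod TRAP library for Glul and Rlbp1.

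Edn2, the photoreceptor stress signal among the 10, was not called higher in Abca4Ko rod TRAP. The 3 Abca4Ko libraries lay within 5.6 to 6.3 TPM and the 3 control libraries from 4.3 to 13.9 TPM, so the Abca4Ko values fell inside the control range. The log2 difference was -0.35 (SE 0.32, -1.07 to 0.37, limma adjusted p = 0.767), and without control replicate 1 it was 0.06. Lcn2 differed by -0.11 (SE 0.19, -0.51 to 0.30). Of the other lists, 16 identity, 7 gliosis, 6 signalling and 3 astrocyte genes were tested in rod TRAP, and limma called none, with 1, 2, 0 and 0 of them at an unadjusted p under 0.05, again beside 10.4% of all genes. The largest differences by the rule for named genes were Rlbp1 (0.49, SE 0.48), Dbi (0.45, SE 0.24) and Clu (-0.18, SE 0.15) for identity, Fgf2 (-0.31, SE 0.33), Ece1 (0.23, SE 0.16) and Stat3 (0.11, SE 0.09) for signalling, and Slc1a2 (0.09, SE 0.09) and Aldoc (-0.07, SE 0.08) for astrocytes. No gliosis gene reached the 5 CPM that this rule asks for in rod TRAP. The 9 cone markers were all above 0 in Abca4Ko rod TRAP, 1 of them called (Gngt2, 0.69, SE 0.12, limma adjusted p = 0.0224), and their sum was 455 to 478 TPM in control and 566 to 701 TPM in Abca4Ko.

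The third comparison asked whether the genotype difference was another one in rods than in retina, over all 12 libraries. None of the 10 was called by limma, where 0.00579% of 17273 genes, 1 gene, were, and none had an unadjusted p under 0.05, beside 11.3% of all genes tested. Apoe was nearest, with a difference of differences of 0.75 (SE 0.35, limma adjusted p = 0.443): it was lower in Abca4Ko in retina (-0.34) and higher in rod TRAP (0.43), neither of which was called. The interaction was 0.48 (SE 0.53) for Gfap, 0.28 (SE 0.55) for Edn2, 0.41 (SE 0.39) for Lcn2 and 0.70 (SE 0.45) for Serpina3n. This fit did not pair the fractions by replicate number. With a block by replicate number within each genotype, added after seeing the data, 1 of the 10 had an unadjusted p under 0.05. So had 2809 of 17273 genes, and none of the 10 was called.

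Last, the genes most alike in pattern were sought for Gfap and Edn2, by Pearson's r of log2(CPM + 0.5) over the 12 libraries among 17273 genes. For Gfap, Hmgn3 (r = 0.992), Arhgef37 (0.991) and Psme1 (0.991) came first, but 4156 genes had an r of at least 0.9, since most of the variation is the step between the fractions that the libraries share. For Edn2 a single gene passed 0.9, Bcl3 (r = 0.926), a regulator of NF-κB that is itself on the gliosis list. It was followed by the pseudogene Rpl36a-ps1 (0.848) and by Pcolce (0.821). Bcl3 had 54, 21 and 14 scaled counts in control retina and 30, 15 and 6 in control rod TRAP, with the same order of replicates in both fractions as Edn2, and 8, 17 and 5 in Abca4Ko retina and 6, 10 and 3 in Abca4Ko rod TRAP. At these counts its TPM did not follow, with 2.3, 3.5 and 0.6 TPM in control retina. Rpl36a-ps1 belongs to a family of near-identical copies, so its counts are uncertain.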

How the data were processed

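Mice were 2 months old and perfused with cycloheximide, which holds ribosomes on messages. cDNA came from 5 ng of lysate RNA or 10 ng of rod TRAP RNA by a low-input kit. Each of the 4 groups held 3 libraries, and group and replicate number are those of the labels. Whether replicates were separate animals is not stated, so p-values measure the spread between libraries. The submitters' processing notes name CASAVA 1.8.2, HISAT2, DESeq2, edgeR and the build GRCm39, without order. Strand was not stated.

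The authors deposited scaled counts, a score made from read counts by 1 factor per library to a common total within a fraction (17096515 to 17097707 in rod TRAP, 17860761 to 17862326 in retina) and rounded, and a table of TPM, also made by the authors, to 1 decimal. Where the factor could be recovered (8 libraries) there were 14.8 to 23.2 M reads. Counting error at these depths limits genes under about 10 scaled counts, and no interval for it is given because the values are rescaled.

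Libraries were rescaled by trimmed means of M values (trims 0.3 and 0.05) and tested on log2(CPM + 0.5) with limma 3.58.1 (trend, robust) in R 4.3.3, two-sided, with Benjamini-Hochberg adjustment over all genes tested and a threshold of 0.05. A gene needed 10 scaled counts in 3 libraries. Standard errors and 95% intervals are limma's, fold changes understate low genes, and the fit was tested on simulated data. Each comparison used its own 6 libraries, and the interaction all 12. The fraction and genotype comparisons share libraries. Libraries of the same number in both fractions deviated together (r of 0.169 to 0.294 for control, 0.216 to 0.448 for Abca4Ko), so the numbers were taken to pair them there. Abca4Ko rod TRAP replicate 2, however, went more closely with retina replicate 3 than with its own number. The fit with that block changed no call among the 10 genes.

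Named were the 10 genes, Abca4, from each list any gene called between genotypes and otherwise the 3 largest differences at 5 CPM or more, and the 3 genes most like Gfap and Edn2. The genes and lists were chosen with earlier results of these data known. Promoters are RefSeq's, on GRCm38.p6, while the files are on GRCm39, so no other positions are given. Gene overlaps were read from GENCODE M21. Other steps used Python 3.11.15, numpy 2.4.6, pandas 2.3.3 and matplotlib 3.10.9.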

Additional observations from a re-analysis of the deposited data

How the results depend on the processing

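Of 724 alternative values of single genes, 695 kept their direction and their side of the threshold, and 28 changed sign, all of genes not called in the fit as reported. The cause was not tested unless given. The 8 genes lower in rod TRAP were lower in both genotypes under every alternative in which they were tested, and leaving out a retina library left Serpina3n untested by the filter.

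Between the fractions, Lcn2 in control turned to -0.53 with the deposited scaling alone, -0.018 with medians of ratios and -0.27 on log2(TPM + 1), and in Abca4Ko to -0.092 with the deposited scaling. Edn2 moved to -0.85 in control and -0.54 in Abca4Ko with the deposited scaling, called in neither. Without single libraries Lcn2 ran from -0.14 to 0.27 in control, and Edn2 ran from -0.67 to 0.18 in control and between -0.26 and 0.22 in Abca4Ko. All genes called in Abca4Ko numbered 10280, but 6595 to 9820 without single libraries and 5716 without both libraries of replicate 3, where fewer samples and genes were tested.

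In retina, 18 genes were called between genotypes, against 33 with no filter, 38 on log2(TPM + 1), 62 in 1 fit of 12 libraries and 1 to 21 without single libraries (1 each without Abca4Ko replicate 1 and control replicate 3, 4 without Abca4Ko replicate 2, 10 without control replicate 1). In rod TRAP 148 were called, against 58 on log2(TPM + 1), 94 in 1 fit of 12 libraries and 30 to 594 without single libraries (594 without Abca4Ko replicate 1, and 36, 30 and 33 without control replicates 1 to 3). For the interaction 1 gene was called, and 3 on log2(TPM + 1). Vim ran from -0.10 to 0.28 in retina without single libraries and Glul from -0.14 to 0.23. In rod TRAP the ranges were -0.0080 to 0.36 for Glul, -0.14 to 0.22 for Slc1a3, -0.72 to 0.061 for Edn2 and -0.28 to 0.023 for Lcn2, and for the interaction -0.10 to 0.34 for Glul and -0.15 to 0.70 for Edn2.

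Some alternatives were chosen after seeing the data. Without replicate 1 of both genotypes Glul in retina was -0.10. Without the libraries high in lens transcripts, which leaves 1 Abca4Ko library, 504 genes were called in retina and 3204 in rod TRAP, 1 of the 10 among them (Glul). Vim became -0.27, Glul -0.20 and Lcn2 0.14 in retina, and Edn2 0.17 in rod TRAP.

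A replicate block gave 12369 and 11391 genes called between the fractions in control and Abca4Ko. Between genotypes same-numbered libraries did not deviate together (r between -0.41 and 0.03) and share only a number. There the block gave 46 genes in retina, 151 in rod TRAP and 1 for the interaction. A block by replicate number within each genotype, added after seeing the data, also gave 1 for the interaction. Neither block changed a call among the 10. Depth limits Gfap and Serpina3n in rod TRAP, where most libraries held under 10 scaled counts.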
